A study of Mus musculus with 8 samples.

Results

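The collapsin response mediator proteins (CRMPs) are encoded by 5 genes, *Crmp1*, *Dpysl2*, *Dpysl3*, *Dpysl4* and *Dpysl5*, and their transcripts were followed in the mouse brain under the neuropeptide PACAP38 and under permanent occlusion of the middle cerebral artery (PMCAO). The members were taken as all spots, other than control spots, whose gene name in the array files is one of these symbols. This gave 7 spots of 43379 and 5 gene names of 27677. *Dpysl2* and *Dpysl5* have 2 probes each, and the other genes have 1. The brighter probe of a pair is called the leading probe and the other one the second probe.

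Total RNA came from the right hemisphere of male C57BL/6J mice, 8 to 12 weeks old by the labels. The mice had a sham operation or PMCAO by an intraluminal filament on the right side, followed at once by 1 μL of saline or of PACAP38 (1 pmol) into the cerebral ventricle from the left, non-occluded side. The hemisphere was taken at 6 h or 24 h, without olfactory bulb and cerebellum, and in PMCAO it holds infarct core, penumbra and non-ischemic tissue. Each of the 8 groups (sham and PMCAO, saline and PACAP38, 6 h and 24 h) is 1 pool of 3 mice with 300 ng RNA from each, and the PMCAO mice had neurological grade 1 or 2. The PACAP38 and saline pools of one surgery and time were hybridized together, one in Cy5 and the other in Cy3, and again with the dyes exchanged. The 8 arrays thus make 4 comparisons of PACAP38 over saline. Both arrays of a comparison carry the same RNA and count as 1 replicate, so there is no test within a comparison.

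CRMPs are cytosolic phosphoproteins of neurons that form tetramers and link guidance signals to the cytoskeleton. They act in the response of the growth cone to semaphorins, where phosphorylation by Cdk5, Gsk3b and Fyn releases them from their partners, and they guide axon outgrowth, dendrite formation and neuronal migration. Expression is highest in the developing brain and continues in parts of the adult brain, and the proteins are known substrates of calpain in injured neurons. CRMP2, the product of *Dpysl2*, binds tubulin dimers and promotes axon formation. The RNA level measured here says nothing of phosphorylation or cleavage.

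The probe sequences show what each value rests on, and the arrays do not read all members in the same way. Positions are those of the mouse build mm7 given in the array files, and the sequences are the probes' own letters as deposited. The second *Dpysl5* probe is printed whole because its 60 bases lie over 1731 bases of the genome (chr5:29814030-29815760, plus strand), so it crosses at least 1 exon junction and reads spliced RNA.
*Dpysl5*, second probe: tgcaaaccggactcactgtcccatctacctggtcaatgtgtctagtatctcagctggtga
The other printed probes lie in 1 unbroken stretch of 60 bases each, and their first 30 bases are given. The pair for *Dpysl2* is shown because its probes lie at different places of the same transcript, at chr14:61663778-61663837 (leading) and chr14:61666090-61666149 (second), both on the minus strand.
*Dpysl2*, leading probe: aatacaagtctcgtgtttattattccttaa
*Dpysl2*, second probe: ttttttaaagagcctgtgatagttgctgtg
The leading *Dpysl5* probe (chr5:29830773-29830832, plus strand) and those of *Crmp1* (chr5:36373397-36373456, plus strand) and *Dpysl4* (chr7:135521287-135521346, plus strand) are shown because *Crmp1* and *Dpysl4* gave the widest PMCAO differences at 24 h.
*Dpysl5*, leading probe: taatgaccctagaggtcacaggtatcataa
*Crmp1*: gatttttaaagttttgtacagttttccttt
*Dpysl4*: tcctacaaagtgtgtttctataggattact
The probe of *Dpysl3* also crosses a junction. Exon and untranslated region of each probe were not read, since an annotation of this build was not used here.

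All 7 probes were well above background in 16 of 16 channels, and none was saturated. The processed signal (background subtracted and dye normalized by the scanner software) of the leading *Dpysl2* probe was 14875 at the lowest, 23882 at the median and 89127 at the highest of the 16 channels. For *Crmp1* these signals were 6968, 10107 and 29575. For *Dpysl4* they were 4128, 4932 and 13494, and for *Dpysl3* they were 2152, 2632 and 3221. The remaining 3 probes were dim. The second *Dpysl2* probe had a median signal of 334, the leading *Dpysl5* probe of 110 and the second *Dpysl5* probe of 46.5, with a lowest signal of 31.9. Signals of different probes depend on the probe and give no order of the genes.

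One array stood apart. It is the array of the 6 h sham pools that read PACAP38 in Cy3, on which the software marked 10.7% of the spots as outliers, against 0.323% to 3.09% on the other 7. The members show it plainly when the same pools are read on both of their arrays. For each channel the level is the log2 processed signal minus the 75th percentile of that channel. The mean level of the sham 6 h pools for the leading *Dpysl2* probe was 4.25 on the array with PACAP38 in Cy5 and 6.29 on the other, and for the second probe it was -0.85 and -2.71. Over the 7 probes these differences ran from -1.86 to 2.04, with a median size of 1.23. On the other pairs of arrays the widest was 0.39 at 6 h (PMCAO), and 0.27 (sham) and 0.23 (PMCAO) at 24 h. In the plot of levels by channel, the sham 6 h squares leave the circles up or down for every member. Comparisons of PACAP38 with saline on one array do not use this shift, but comparisons of PMCAO with sham at 6 h do, and for the members and the genes that act with them these are given with and without it. Levels at 6 h and 24 h come from separate arrays and software versions, so time and these cannot be told apart.

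**Figure D1:**
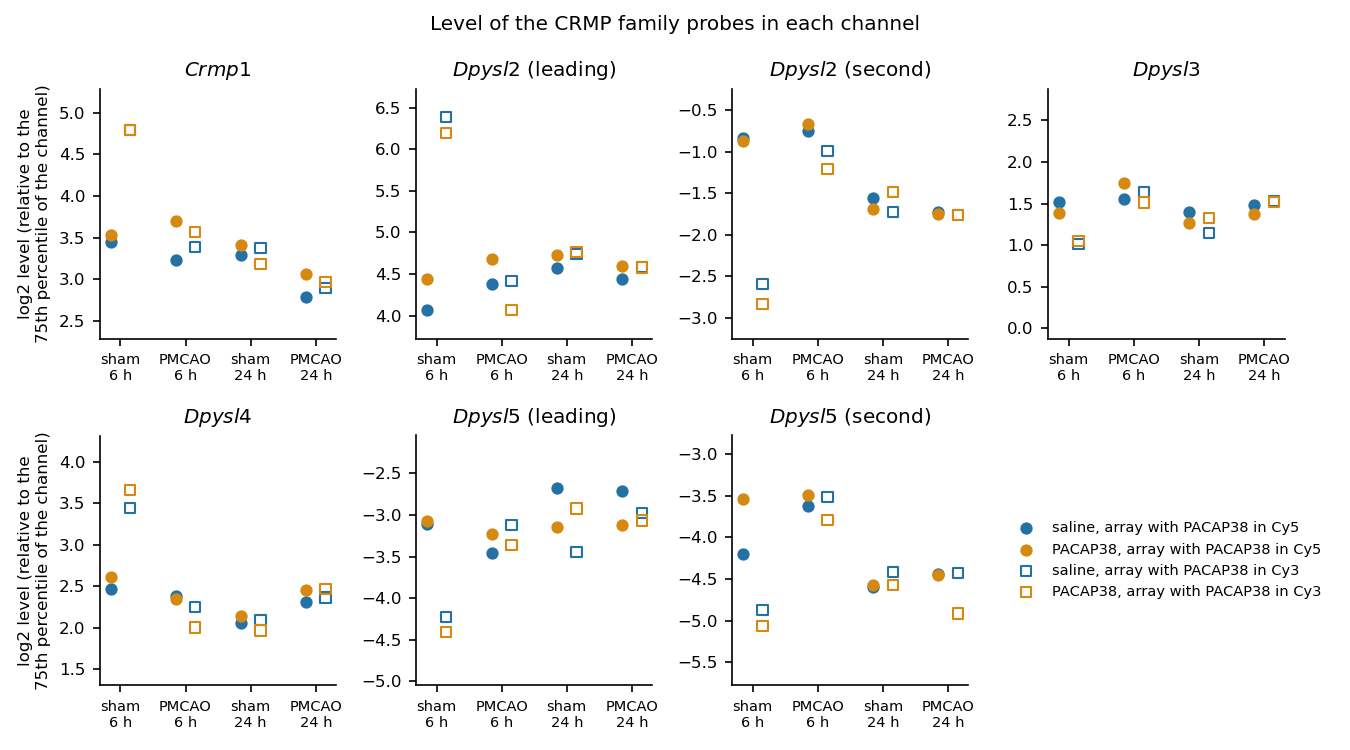
Level of each CRMP probe (vertical axis, log2 processed signal relative to the 75th percentile of the channel) in the 4 combinations of surgery and time (horizontal axis), with blue for saline and orange for PACAP38, circles for the arrays with PACAP38 in Cy5 and squares for those with PACAP38 in Cy3. All panels span the same range of log2 units. At 24 h circles and squares lie close together, whereas in sham at 6 h the leading *Dpysl2* probe reads 4.25 on one array and 6.29 on the other.

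The first question was whether PACAP38 moved the RNA of the family. No member passed the study's threshold (above 1.5-fold or below 0.75-fold, mean of both arrays) in any comparison. The 28 values, 7 probes in 4 comparisons, lay between 0.836-fold and 1.25-fold. Of all probes, 10.5% of the sham and 12% of the PMCAO values at 6 h passed it either way, and 5.62% and 11.2% at 24 h. With marked outlier spots left out, no member with a value passed either, beside 11.5%, 12.3%, 5.62% and 11.2% of all probes. Among the 22599 probes that were well above background in every channel, as the members were, the shares were 2.1%, 3.33%, 0.668% and 5.82%. Both arrays had the same sign in 12 of the 28 values, and the median of the difference between the arrays divided by 2 was 0.12 on the log2 scale. For *Crmp1*, *Dpysl3*, *Dpysl4* and the leading *Dpysl2* probe the software marked at least 1 spot at 6 h as an outlier, on 3, 1, 1 and 2 arrays. These spots were kept in the values below, and 22 of the 28 values involve none.

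*Dpysl2*, whose protein CRMP2 promotes axon formation, had the log2 ratios 0.36 and -0.18 in the 6 h sham pair with its leading probe, the first on the array with PACAP38 in Cy5 and the second on that with PACAP38 in Cy3. In the 6 h PMCAO pair they were 0.30 and -0.34. The sign followed the dye on which PACAP38 was read, and the means were 0.09 and -0.02. At 24 h the ratios were 0.15 and 0.01 in sham and 0.15 and -0.02 in PMCAO, with means of 0.08 and 0.07. The second probe had means of -0.14 and -0.06 at 6 h and of 0.05 and -0.02 at 24 h in sham and PMCAO. All 8 means of the gene were therefore within 0.15 of 0 on the log2 scale.

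*Dpysl3* encodes CRMP4, which binds actin filaments in growth cones. Its log2 ratios were -0.13 and 0.04 in sham and 0.18 and -0.11 in PMCAO at 6 h, and -0.14 and 0.18 in sham and -0.12 and -0.03 in PMCAO at 24 h, in the order of the arrays above. Only the PMCAO pair at 24 h had 1 sign, with a mean of -0.07. Of the 5 genes it had the narrowest range of means, -0.07 to 0.04.

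*Crmp1*, whose protein acts with Fyn in semaphorin signaling and neuronal migration, gave the highest value of the family. In PMCAO at 6 h its log2 ratios were 0.46 and 0.19, a mean of 0.32 or 1.25-fold, with an outlier mark on the first array. In PMCAO at 24 h they were 0.27 and 0.06, a mean of 0.17. PACAP38 was thus above saline on all 4 PMCAO arrays. In sham the ratios were 0.08 and 0.0019 at 6 h, both marked, and 0.12 and -0.20 at 24 h.

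*Dpysl4* encodes CRMP3, a member found in few regions of the adult brain. Its ratios were above 0 on both arrays of the 6 h sham pair (0.13 and 0.22) and of the 24 h PMCAO pair (0.13 and 0.10). They were below 0 on both arrays of the 6 h PMCAO pair (-0.05 and -0.23) and of mixed sign in the 24 h sham pair (0.07 and -0.13). The direction was thus not the same in the 4 comparisons.

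*Dpysl5* encodes CRMP5, which limits neurite outgrowth promoted by CRMP2 and is known from young neurons and oligodendrocytes. It had the lowest values of the family, both in PMCAO at 24 h. The leading probe read -0.42 and -0.10 there, a mean of -0.26 or 0.836-fold. The second probe read -0.02 and -0.49, a mean of -0.25 or 0.838-fold. PACAP38 was below saline with both probes on both arrays, but each probe passed 0.75-fold on 1 array only, and not on the same one. In sham at 24 h the leading probe read -0.48 and 0.52, the widest disagreement among the 28 values. In sham at 6 h the second probe read 0.65 and -0.19. All 4 single-array values of the family past the threshold came from this gene.

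**Figure D2:**
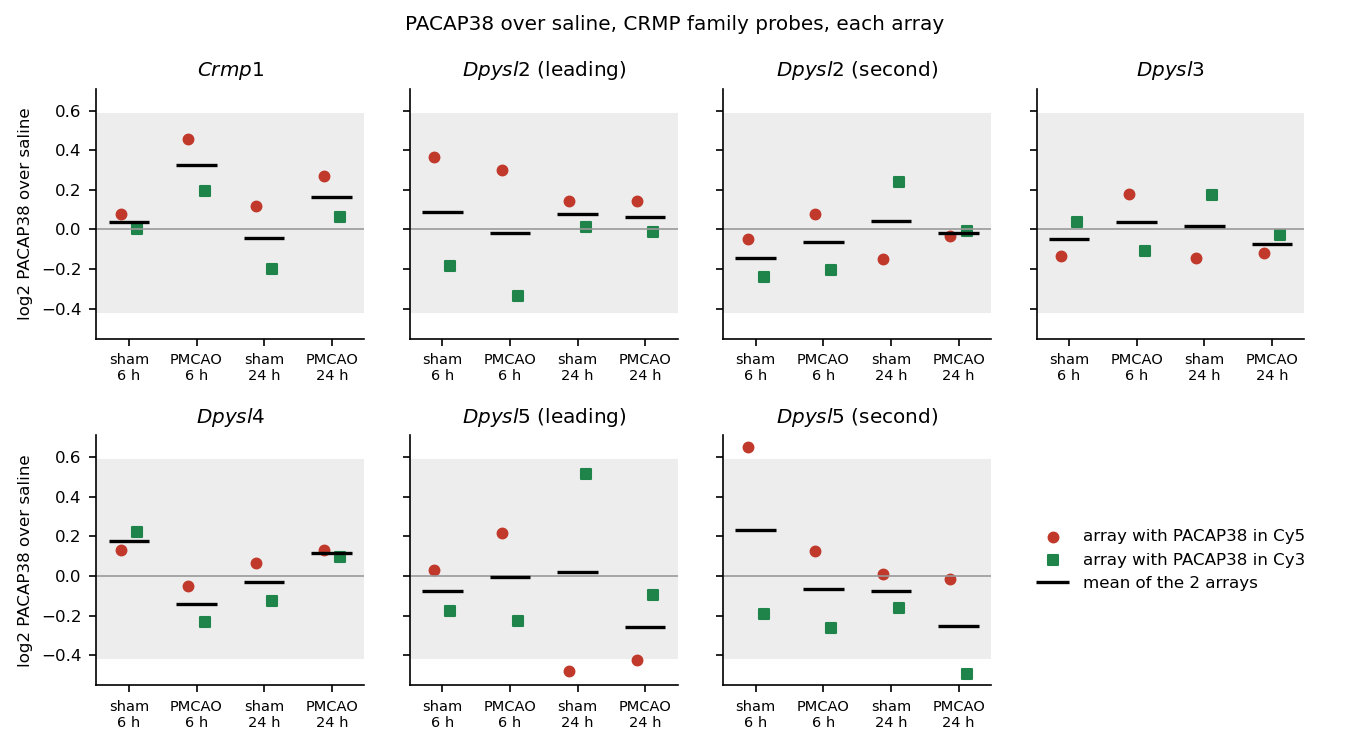
PACAP38 over saline (vertical axis, log2) for each CRMP probe in the 4 comparisons, with red circles for the array with PACAP38 in Cy5, green squares for the array with PACAP38 in Cy3 and a bar for their mean. The grey band runs from 0.75-fold to 1.5-fold. All 28 bars lie inside it, and the 4 points outside belong to *Dpysl5*.

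The mean over the 4 comparisons, which are 4 pairs of pools from separate mice, was tested with limma across all 41174 probes with Benjamini-Hochberg adjustment. It called 0% of them, 0 of 7 member probes among them. Of the 41174 probes 2059 had an unadjusted p under 0.05, about the share that this cutoff gives by chance. The largest mean was that of *Crmp1*, 0.12 ± 0.07 (SE, n = 4 pairs of pools, limma adjusted p = 0.873), with a 95% interval from -0.09 to 0.33. The interval of *Dpysl2* was -0.03 to 0.13 with the leading probe and -0.16 to 0.07 with the second. That of *Dpysl3* was -0.10 to 0.06, and that of *Dpysl4* was -0.16 to 0.22. For *Dpysl5* it was -0.25 to 0.09 and -0.30 to 0.22. These intervals bound the mean response to PACAP38 over both surgeries and times, and they do not show that PACAP38 had no effect. When marked spots were left out, 3 of the 7 probes (the second *Dpysl2* probe and both of *Dpysl5*) had a value in all 4 comparisons, and again none of them was called. The PACAP38 ratio was also tested for a difference between PMCAO and sham and between 24 h and 6 h, with 1 residual degree of freedom. Neither test called a member or any other probe (limma, lowest adjusted p over the 7 probes 0.786 and 0.837, with 2278 and 1888 of all probes at an unadjusted p under 0.05). For *Crmp1* the PACAP38 ratio was 0.25 higher in PMCAO than in sham, with a 95% interval from -0.06 to 0.55.

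The second question was how the family stood in the ischemic hemisphere. Each PMCAO channel was set against the sham channel of the same dye and time, which gives 4 differences per time, 2 from the saline pools and 2 from the PACAP38 pools. At 24 h *Crmp1* was lower (0.765-fold) and *Dpysl4* higher (1.26-fold) in PMCAO in all 4 differences, and neither passed the test. The fit covered all 8 pools, with limma and Benjamini-Hochberg adjustment over 41174 probes. Of these, 3.21% were called at 24 h (2.18% of those well above background in every channel, and 0.155% without the 6 h arrays with PACAP38 in Cy3), and of the 7 member probes 0 were, with *Crmp1* and *Dpysl4* at an unadjusted p under 0.05. With marked spots left out the share was 3.64%, and 0 of 3 members with a value in every channel were called. The fit without the 6 h arrays with PACAP38 in Cy3 used PMCAO minus sham differences of pools and had fewer residual degrees of freedom. Its 24 h values were the same, so only the spread and the test changed there. The saline and PACAP38 pools of one surgery share their arrays, so differences between arrays are not in the spread and the p-values can be too small.

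*Crmp1* had a level of 3.33 in the sham saline pool and 3.30 in the sham PACAP38 pool at 24 h. In PMCAO the levels were 2.84 with saline and 3.01 with PACAP38, so both PMCAO pools were below both sham pools. The 4 differences were -0.50, -0.48, -0.35 and -0.21, and the fitted difference was -0.39 ± 0.13 (SE, 95% interval -0.70 to -0.07, limma adjusted p = 0.166), or 0.765-fold. The PACAP38 pools differed by -0.28 and the saline pools by -0.49.

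*Dpysl4* lay at 2.08 and 2.06 in the sham pools with saline and PACAP38 and at 2.34 and 2.46 in the PMCAO pools at 24 h. The order was the opposite of that of *Crmp1*. Sham and PMCAO pools that did not overlap at 24 h were also seen for *Dpysl3* and both *Dpysl2* probes. How often this held over all probes was not counted, so nothing about the family is read from it. The differences were 0.24, 0.27, 0.31 and 0.50, with a fitted difference of 0.33 ± 0.12 (SE, 95% interval 0.03 to 0.64, limma adjusted p = 0.206), or 1.26-fold. When only the 24 h pools were fitted after normexp background correction, loess and Aquantile normalization, an alternative chosen after seeing the data, *Dpysl4* was called (0.39, limma adjusted p = 0.0371), beside 7.58% of all probes. *Crmp1* was not called there (-0.33, limma adjusted p = 0.0520). With the scaling used here the same 24 h pools alone gave no call, with adjusted p = 0.169 for both genes.

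*Dpysl3* was at 1.27 and 1.29 in sham and at 1.51 and 1.45 in PMCAO at 24 h. All 4 differences were above 0, from 0.09 to 0.39, and the fitted difference of 0.20 ± 0.10 (SE, 95% interval -0.05 to 0.45) had an adjusted p of 0.339 by limma. *Dpysl2* was lower in PMCAO in all 4 differences with both probes. The leading probe stood at 4.66 and 4.75 in sham and at 4.51 and 4.59 in PMCAO, a fitted difference of -0.15 ± 0.10 (limma adjusted p = 0.468). Its 4 differences lay within 0.05 of each other, from -0.18 to -0.13, closer than those of any other member. The second probe gave -0.13 ± 0.11 (limma adjusted p = 0.557). Both 95% intervals, -0.40 to 0.10 and -0.40 to 0.13 on the log2 scale, leave room for lower and for higher *Dpysl2* RNA. They can be too narrow and are not outer bounds.

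For *Dpysl5* the pools of sham and PMCAO overlapped at 24 h. The leading probe was at -3.06 and -3.03 in sham and at -2.85 and -3.09 in PMCAO, and the second probe at -4.51 and -4.58 in sham and at -4.44 and -4.68 in PMCAO. The fitted differences were 0.08 ± 0.12 and -0.02 ± 0.14 (SE, limma adjusted p = 0.794 and 0.957). With other normalizations their signs changed. In all, 5 of the 7 probes had 4 differences of 1 sign at 24 h, which was also the case for 46.8% of all probes, so that this alone says little of the family.

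**Figure D3:**
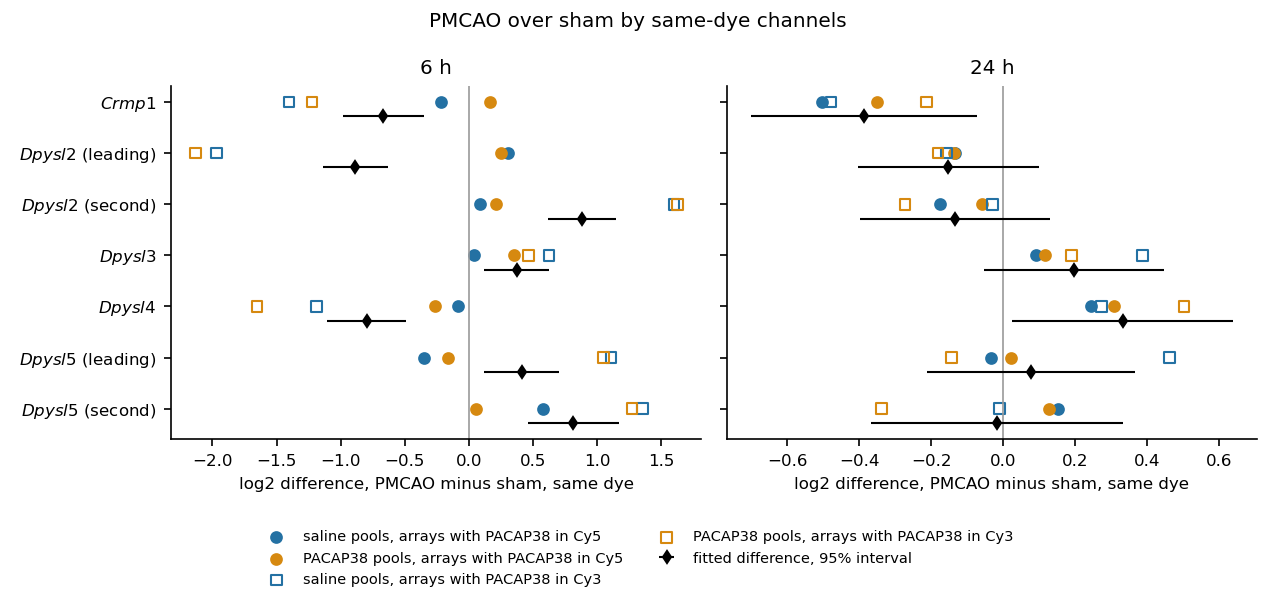
PMCAO minus sham (horizontal axis, log2, same dye and time) for each CRMP probe at 6 h and 24 h on separate scales, with blue for saline pools, orange for PACAP38 pools, circles for the arrays with PACAP38 in Cy5 and squares for those with PACAP38 in Cy3. Black diamonds and lines are the fitted difference and its 95% interval. At 24 h all 4 points of *Crmp1* lie below 0 and all 4 of *Dpysl4* above it, while at 6 h squares and circles lie apart, as for the leading *Dpysl2* probe (-2.13 and -1.97 against 0.25 and 0.31).

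At 6 h the comparison with sham rests on the array that stood apart. With it, all 7 probes were called (limma, adjusted p from 0.00189 to 0.0310), 4 higher and 3 lower in PMCAO, beside 51.1% of all probes and 58.5% of those well above background in every channel. With marked spots left out, 3 of 3 were called, beside 48.4% of all probes. When the 6 h arrays with PACAP38 in Cy3 were left out for both surgeries, which was chosen after seeing the data, 0 of 7 were called, beside 0.00729% of all probes. The leading *Dpysl2* probe then changed from -0.89 ± 0.10 to 0.28 ± 0.09 (SE, limma adjusted p = 0.177), and the leading *Dpysl5* probe from 0.41 to -0.26. *Crmp1* went from -0.67 to -0.02 and *Dpysl4* from -0.80 to -0.18. The second *Dpysl2* probe went from 0.88 to 0.15, *Dpysl3* from 0.37 to 0.20 and the second *Dpysl5* probe from 0.81 to 0.32. Without those arrays both probes of *Dpysl2* were above 0 at 6 h, with 95% intervals from 0.01 to 0.55 and from -0.14 to 0.43. With those arrays the probes of this single gene had opposite signs. On the arrays that remained, the sham saline spot of the leading *Dpysl2* probe was marked as an outlier. So were the saline spots of *Crmp1* in sham and PMCAO. With marked spots left out, 5 of 7 probes had a value on these arrays, and the leading *Dpysl2* probe and *Crmp1* had none.

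The change of the PMCAO difference from 6 h to 24 h was tested in the same fit. It was called for 4 of 7 probes, beside 31.7% of all probes, and for 2 of 3 with marked spots left out, beside 29.4%. These were the leading (0.73) and second (-1.01) probes of *Dpysl2*, *Dpysl4* (1.13) and the second probe of *Dpysl5* (-0.83). Without the 6 h arrays with PACAP38 in Cy3, 0 of 7 were called and the values were -0.43, -0.28, 0.51 and -0.33. *Dpysl4* thus kept its sign while its difference shrank, with a 95% interval from 0.06 to 0.95 and a limma adjusted p of 0.247. The leading *Dpysl2* probe turned its sign. The mean PMCAO difference over both times was called for 5 of 7 probes with spots kept, for 2 of 3 with spots left out and for 0 of 7 without those arrays, beside 42.8%, 39.9% and 0.153% of all probes. With 1 mean difference per time as the replicate and marked spots left out, every call ended, in 0 of 3 members and 0 of 36121 probes (limma, 0 members and 2276 probes at an unadjusted p under 0.05). That fit had 2 values per probe and so little power, and the end of the calls is not read as a result.

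The genes that act with the CRMPs were listed by role, and 38 of 41 were on the arrays, 37 of them well above background in all channels. At 24 h 1 of the 38 was called lower in PMCAO and 0 higher (limma on all 8 pools), beside 3.21% of all probes called. Of the 38, 12 had a value above 0, and the median of all 38 was -0.10 against 0.00069 over all probes. The gene that passed was *Plxna3*, a plexin receptor for class 3 semaphorins, at -0.73 ± 0.11 (SE, limma adjusted p = 0.0346). It was no longer called in the fit without the 6 h arrays with PACAP38 in Cy3, where its value was the same. Nor was it called when all probes of a gene were averaged. Among the 7 ligand and receptor genes only *Nrp1*, the neuropilin that binds *Sema3a*, had a value above 0 (0.44, adjusted p = 0.292). Averaged over all probes of each gene, the highest of the 7 values was 0.00074. *Sema3a* itself, the ligand whose signal runs through CRMPs, had -0.75 ± 0.18 (adjusted p = 0.0896).

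Of the 9 kinase genes measured, 4 lay above 0 and 0 were called. The most negative were both activators of Cdk5, *Cdk5r2* (-0.40) and *Cdk5r1* (-0.37), while *Cdk5* itself had 0.21 and *Fes* 0.27. The 4 phosphatase genes lay from -0.35 (*Ppp2r2b*, a regulatory subunit of protein phosphatase 2A) to -0.001. After normexp, loess and Aquantile on the 24 h pools, 1 of them was above 0. The 4 calpain genes lay from 0.01 to 0.90, and 3 of 4 were above 0 after that normalization. The largest value was that of *Cast*, the calpain inhibitor calpastatin, at 0.90 ± 0.25 (limma adjusted p = 0.124). The highest of the 4 calpain values was 0.58 when all probes of a gene were averaged. Among the 11 binding partners *Rtn4r*, the Nogo receptor, had -0.45 and *Wasf1*, an actin regulator, -0.44, while *Vav2* had 0.37. *Dpyd*, *Dpys* and *Upb1*, the pyrimidine enzymes related to the CRMPs by sequence or pathway, lay between -0.24 and 0.13. None of the genes in these 5 roles passed the test. After normexp, loess and Aquantile on the 24 h pools alone, 1 gene of the 38 was called higher and 6 lower, beside 7.58% of all probes. At 6 h, 9 of 38 were called higher and 11 lower with all arrays, beside 51.1% of all probes. Without the 2 arrays with PACAP38 in Cy3, 0 of 38 were called and the median was -0.02, against 0.12 over all probes.

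**Figure D4:**
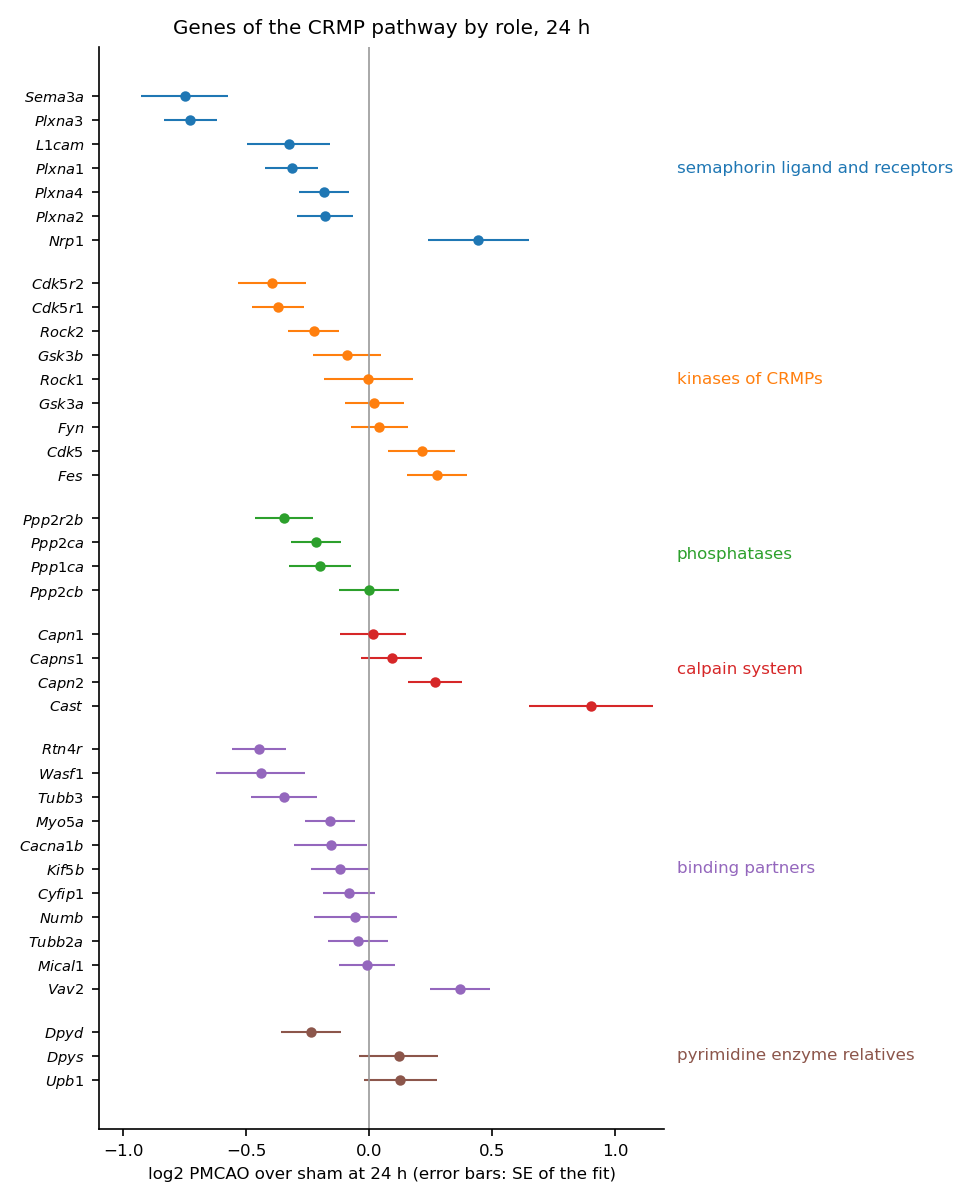
PMCAO over sham at 24 h (horizontal axis, log2, error bars SE of the fit) for the 38 genes that act with the CRMPs, coloured and grouped by role and ordered by value within a role. *Sema3a* and *Plxna3* lie lowest at -0.75 and -0.73 and *Cast* highest at 0.90. *Plxna3* alone passed the test, which called 3.21% of all probes.

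Under PACAP38, 0 of the same 38 genes were past the threshold in the sham pairs of either time. In PMCAO 2 were past it up at 6 h (*Nrp1* 0.60 and *Numb*, an endocytic adaptor, 0.60) and 1 down at 24 h (*Cast*, -0.73). Of all probes 3.57% were past it up and 6.9% down in the 6 h sham pair, 5.29% and 6.7% in the 6 h PMCAO pair, 1.75% and 3.87% in the 24 h sham pair, and 2.99% and 8.18% in the 24 h PMCAO pair. *Cast* was thus the one gene of the list with a PMCAO value at 24 h above 0.5 and a PACAP38 value past the threshold in PMCAO at that time. Both comparisons use the PMCAO PACAP38 pool. The levels of *Cast* at 24 h were -1.50 and -1.40 in the sham pools, -0.18 in PMCAO with saline and -0.91 in PMCAO with PACAP38.

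Markers of the cells a hemisphere can hold were read in the same way. Fewer cells of a type and less RNA per cell cannot be told apart in such bulk tissue. Of the 10 mature neuron markers 7 were on the arrays, all well above background in 16 channels, and at 24 h 0 were called, with a median PMCAO difference of -0.15. The 10 markers of immature neurons and axon growth had a median of -0.08 and 0 calls, with *Gap43* (-0.42) and *Tubb3* (-0.35) lowest and *Igfbpl1* (0.14) highest. The leading *Dpysl2* probe (-0.15) thus lay at the median of the mature neurons, *Crmp1* (-0.39) below the lowest of them (-0.26), and *Dpysl4* (0.33) above the highest (0.06). That median depended on the setting. It was -0.02 when all probes of a gene were averaged and -0.10 after normexp, loess and Aquantile on the 24 h pools. Calls at 24 h were 0 of 8 for oligodendrocytes (median -0.15), 1 of 7 for astrocytes (0.04), 1 of 6 for microglia (-0.30) and 0 of 5 for endothelium (-0.14). The astrocyte call was *Aldh1l1*, a folate enzyme, at 5.40, with levels of -2.77 and -2.56 in the 24 h sham pools against 2.17 in each 6 h sham pool. It was not called in the 24 h pools alone as scaled here. The microglia call was *Cd68*, a lysosomal protein of phagocytes, at 1.07. It was lost in the fit without the 6 h arrays with PACAP38 in Cy3 and in the 24 h pools alone as scaled here. After normexp, loess and Aquantile on the 24 h pools, 2 astrocyte genes and 1 microglia gene were called higher. There, 2 microglia, 2 endothelium, 1 oligodendrocyte and 1 immature neuron gene were called lower, beside 7.58% of all probes called. The acute response to ischemia had 8 of 12 genes called higher, with a median of 2.91. This became 1 of 12 without the 6 h arrays with PACAP38 in Cy3, 0 in the 24 h pools alone as scaled here and 9 in the 24 h pools after normexp, loess and Aquantile, all 12 values being above 0 in each.

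Some lists rest on probes near background. Neutrophil markers had 0 of 5 called. Their widest values were *S100a8* (4.34 ± 0.91, SE) and *S100a9* (4.25 ± 0.93), well above background in 16 of 16 channels. The median was 2.00, the value of *Ngp*, which was well above background in 2 of 16 channels. After normexp, loess and Aquantile on the 24 h pools the median was 0.43. In the same way, the medians changed from 1.01 to 0.22 for pituitary, where 1 of 4 markers was well above background in every channel, and from 0.75 to 0.38 for raphe, where 2 of 3 were. The medians of the other regions were -0.47 for striatum, 0.71 for olfactory bulb (2 of 5 markers well above background in every channel), -0.04 for cerebellum (3 of 5), -0.22 for hypothalamus and -0.08 for choroid plexus. The cerebellum median was the value of *Gabra6* (SE 1.37), which was well above background in 6 of 16 channels. After normexp, loess and Aquantile on the 24 h pools the cerebellum median was 0.04. None of the region lists had a call at 24 h, except 1 striatal gene called higher after normexp, loess and Aquantile. The part of cell makeup in the values of the CRMP genes was not tested.

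Under PACAP38 in PMCAO at 24 h, 12 of 12 acute response genes were past the threshold down, with a median of -1.20, as were 4 of 5 neutrophil, 5 of 5 olfactory bulb, 4 of 5 hypothalamus, 3 of 5 endothelium, 2 of 6 microglia, 2 of 3 raphe, 2 of 4 pituitary, 1 of 3 choroid plexus, 1 of 10 immature neuron and 2 of 8 oligodendrocyte markers, the last with 0 of 8 above 0 and a median of -0.34. Striatal neuron markers were above 0 in 6 of 6, with 2 past the threshold up and a median of 0.42. Astrocyte and cerebellum markers had 0 past it either way, and 1 pituitary marker was past it up. In PMCAO at 6 h, 8 of 12 acute response genes were past it up (median 0.66), beside 5.29% of all probes. The members had 0 of 7 past it in each, beside 3.33% at 6 h and 5.82% at 24 h of probes well above background in every channel. The mature neuron markers also had 0 past it, with medians of -0.01 at 6 h and 0.11 at 24 h. The plot by gene list shows these groups side by side. Olfactory bulb markers were past it up in the remaining pairs, 4 of 5 (sham) and 3 of 5 (PMCAO) at 6 h and 1 of 5 at 24 h, although the methods have the bulb removed. Of all probes, 3.57%, 5.29% and 1.75% were past it up in these pairs.

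**Figure D5:**
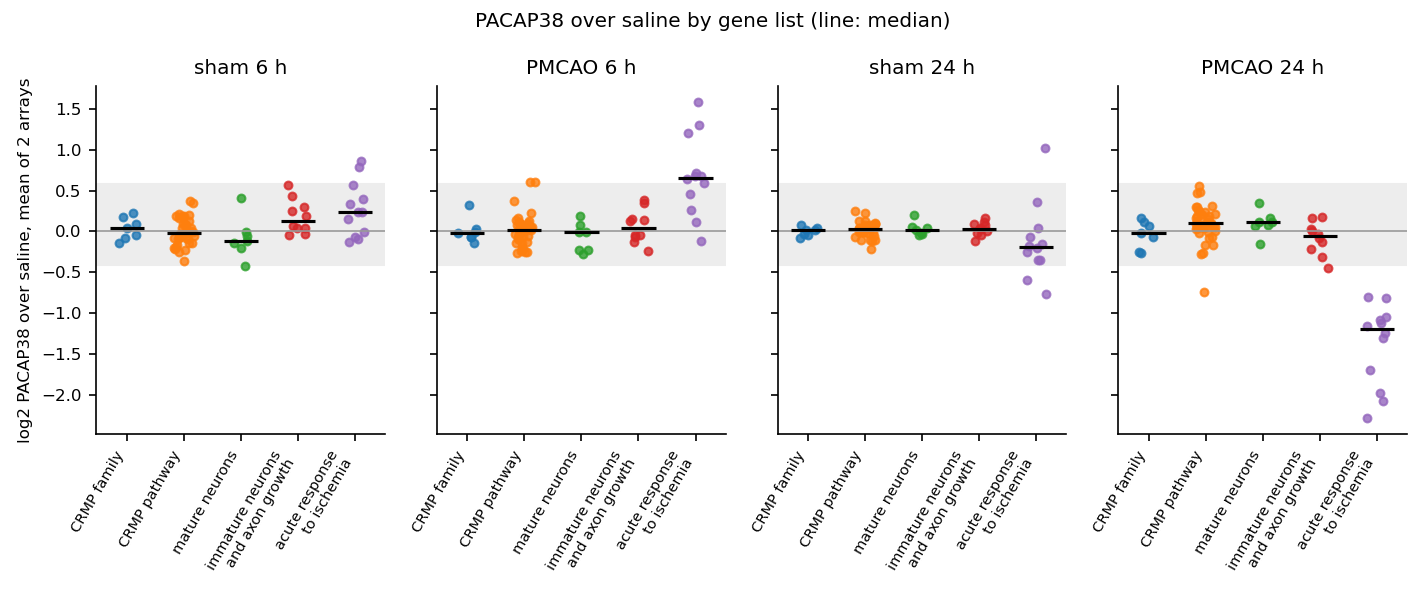
PACAP38 over saline (vertical axis, log2, mean of both arrays) in the 4 comparisons for the 7 CRMP probes, the 38 genes that act with them, 7 mature neuron markers, 10 markers of immature neurons and axon growth and 12 genes of the acute response to ischemia, each point a probe and each bar a median. The grey band runs from 0.75-fold to 1.5-fold. The CRMP probes stay inside it in all 4 panels, while all 12 acute response genes lie below it in PMCAO at 24 h.

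Last, the leading or only probe of each gene was set against 15505 other genes by Pearson's r over the levels of the 8 pools, centred within each time, as a description. For *Crmp1* the most alike were *Arhgef7*, *Rpgr* and *2610019F03Rik*, for the leading *Dpysl2* probe *Prim1*, *Itch* and *Sybl1*, and for *Dpysl3* *LOC280121*, *Arfl4* and *Dedd2*. For *Dpysl4* they were *Abcc4*, *BC023814* and *Frs2*, and for the leading *Dpysl5* probe *Rnd1*, *Pdlim2* and *Dbi*. All of these had r above 0.99, but so close a likeness was common, with r above 0.9 for 761 genes (*Dpysl4*) to 3182 genes (leading *Dpysl2* probe). The 8 pools share 8 arrays, that which stood apart among them. Without the 6 h arrays with PACAP38 in Cy3, the leading probes had 36 to 250 genes above 0.9, and of the 3 nearest genes only *Arhgef7* for *Crmp1* and *Abcc4* for *Dpysl4* were again among the 3. The pair of *Dpysl2* probes had r = -0.94 with those arrays and 0.69 without.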

How the data were processed

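The authors labeled 900 ng pooled RNA with Cy3 or Cy5, hybridized 60-mer Agilent arrays with dye swap and processed the scans with Feature Extraction (9.5.3.1 per the labels and the 24 h headers, 9.5.1.1 in the 6 h headers). Per spot, the authors' files hold a log10 ratio (Cy5 to Cy3) of background-subtracted, dye-normalized signals. The deposited intensity columns are the mean, background and processed signals, and flags mark outlier, saturated and well-above-background spots. The authors also deposited a table of ratios, in which arrays with PACAP38 in Cy3 carry a score, the ratio with a minus sign. For 3 arrays a second deposited copy held identical values.

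Log10 ratios were turned to log2 PACAP38 over saline and averaged over both arrays. The labels number the arrays of a comparison as pools, while the methods state the same RNA, and the methods were followed. PMCAO over sham used log2 processed signals minus the 75th percentile of the channel, averaged over dyes. Tests used limma 3.58.1 in R 4.3.3, and calls were made at a Benjamini-Hochberg adjusted p under 0.05. The residual degrees of freedom were 3 for the mean PACAP38 ratio and for PMCAO over sham in the fit of all 8 pools. The fit without the 6 h arrays with PACAP38 in Cy3 used PMCAO minus sham differences of pools and had fewer. The fit of the 24 h pools alone also had fewer. The planned setting left marked outlier spots out, which removes 4 member probes from the fits (36121 probes), so values with these spots kept (41174 probes) are given for all members. The normexp alternative used an offset of 50. Scripts were tested on simulated data. Plots and tables used Python 3.11.15, pandas 2.3.3 and matplotlib 3.10.9.

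The members, the 6 role lists and the 15 marker lists were chosen with earlier results of these data known. Named were all member probes, the 3 genes most like each gene's leading or only probe, per list at most the 2 widest differences in each direction, and role list genes past the test. Each gene of a list was read by its brightest probe.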

Additional observations from a re-analysis of the deposited data

Results flagged for a closer look

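The array of the 6 h sham pools that read PACAP38 in Cy3 stood beyond the other 7 arrays in 3 measures, by a gap test that flags about 1 in 20 groups by chance and was run on 12 sets of values. Outlier marks fell on 10.7% of its spots. The 99th percentile of the processed signal lay 5.57 above the 75th percentile in Cy3 and 5.58 in Cy5 on the log2 scale, against 5.07 to 5.24 on the other arrays. The members with marked spots on it and the shift of their levels are given in the report.

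The difference between PMCAO and sham was not the same at 24 h as at 6 h for 4 probes by limma over all 8 pools. The change from 6 h to 24 h was 0.73 for the leading and -1.01 for the second probe of *Dpysl2*, 1.13 for *Dpysl4* and -0.83 for the second probe of *Dpysl5*. Without the 6 h arrays with PACAP38 in Cy3 these were -0.43, -0.28, 0.51 and -0.33, and none was called. Time cannot be told apart from the arrays and the software version.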

How the results depend on the processing

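No paired analysis was possible because the replicate number marks the dye orientation of the same pools. The alternatives with spots kept and arrays left out, spots kept and quantile normalization, and 24 h pools only were chosen after seeing the data. Of the counts of members and probes and the list counts, 63 values stayed within 1.5 times and 31 moved, and of the values of single probes 313 kept their side, 57 moved, 26 lost their call, 1 gained one and 15 changed sign. With 1 array per comparison, 0 to 1 members passed the PACAP38 threshold. In PMCAO over sham at 6 h, the 3 members called with marked spots left out became 1 with quantile and 1 with normexp normalization, 0 with Cy3 or Cy5 channels alone and 0 to 3 with 1 array orientation. With spots kept the count was 7, or 5 with quantile normalization, and 0 without the 6 h arrays with PACAP38 in Cy3. For the mean over both times the count of 2 became 1 with quantile or normexp. It became 0 with the channel median, with either dye alone or with 1 mean difference per time as replicate. It was 0 to 3 with 1 orientation, 5 with spots kept, 4 with quantile on these and 0 without the 6 h arrays. For 24 h minus 6 h it was 2, and 1 with quantile, normexp or the channel median, 0 with either dye alone, 0 to 2 with 1 orientation, 4 with spots kept and 0 without the 6 h arrays. At 24 h the count of 0 became 1 with the 24 h pools only after normexp. Signs changed in the mean PACAP38 ratio of *Dpysl3* (0.0016) and of *Dpysl4* (-0.0185) when the PMCAO pair at 24 h or the sham pair at 6 h was left out, in this order. The second *Dpysl5* probe ranged from -0.133 to 0.0292 as each pair was left out, the latter without the 24 h PMCAO pair. At 6 h signs changed without the arrays with PACAP38 in Cy3 for the leading *Dpysl2* probe (0.28) and the leading *Dpysl5* probe (-0.26). At 24 h the leading *Dpysl5* probe was -0.0179 after normexp in both fits, -0.0882 with Cy3 alone and -0.0059 without replicate 2, and the second was 0.0709 after normexp in both, 0.0582 with Cy5 alone and 0.14 without replicate 2. The cause was not tested. Over all probes, calls at 24 h numbered 1315, against 4452 with normexp, 2442 over probes above background, 828 with pool differences, 353 to 922 with 1 orientation, 64 with spots kept and the 6 h arrays left out, 0 with either dye alone, and 0 (as scaled, or by quantile) to 3120 (normexp) with the 24 h pools only. At 6 h they numbered 17490, against 465 without replicate 2, 3 without the 6 h arrays and 0 with either dye alone. Each group is 1 pool, and the number of pools limits precision.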
